A study of Homo sapiens with 9 samples.

Results

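Transcript levels of 10 genes of the NRF2 pathway were followed in U2OS, a human osteosarcoma cell line: NFE2L2, which encodes the transcription factor NRF2, KEAP1, and 8 NRF2 targets (NQO1, GCLM, GCLC, SRXN1, TXNRD1, OSGIN1, ME1 and AKR1C1). The genes were chosen by name after earlier results of these arrays were known, in which the differences of each BAP1 hairpin from the control had been seen to go down with 1 hairpin and up with the other for NRF2 genes. Those differences are therefore given here as a description, and the calls listed below are not independent evidence of a direction. All probe sets with a single gene symbol were taken, 25 for these 10 genes out of 54613 fitted in all, which cover 19775 genes. A further 2 probe sets name a member together with another gene and were left out. Of these, 1567014_s_at, annotated to both NFE2L2 and CSNK2A1, ran opposite to the single-symbol NFE2L2 probe sets described below: it differed from shControl by 0.22 with shBAP1 #1 and by -0.27 with shBAP1 #2, neither called, and was lower with shBAP1 #2 than with shBAP1 #1 (-0.48 ± 0.14, SE, limma adjusted p = 0.026). The other, shared by AKR1C2 and AKR1C1, was dim and not called.

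There were 3 groups of 3 arrays. The cells carried a plasmid for a non-targeting shRNA (shControl), or for either of a pair of shRNAs against BAP1 (shBAP1 #1 and shBAP1 #2), and all 9 samples shared lipid transfection, puromycin selection and a double thymidine block at the G1/S border. The targeted gene, BAP1, encodes a deubiquitinase of the nucleus that acts as a tumour suppressor. Its own transcript was not analysed here, so the depletion was not checked, and all groups are transfected populations of a single line. Nothing in the labels says whether replicates were separate cultures, so the spread between arrays may be technical.

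NRF2 is a transcription factor of oxidant and electrophile defence. In unstressed cells KEAP1, an adaptor of the CUL3 ubiquitin ligase, binds NRF2 and has it degraded. When oxidants or electrophiles modify KEAP1, or when the autophagy receptor p62 occupies it, NRF2 escapes, pairs with a small MAF protein and binds antioxidant response elements of genes for glutathione synthesis, thiol reduction, quinone and carbonyl detoxification and NADPH supply. Control of NRF2 is thus mostly at the level of the protein, which these arrays do not measure.

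The core letters of the antioxidant response element, TGACNNNGC and its close form TGAGNNNGC, were searched on both strands in the 250 bases before the transcription starts listed in RefSeq (GRCh38.p14), for which all 10 genes had an entry, with 13 starts in all. TGACNNNGC was found before 5 of the 13 starts, in 4 genes (KEAP1, GCLM, TXNRD1 and ME1), and in 10.9% of the 35116 windows of all genes. TGAGNNNGC was found before 6 of the 13, in 6 genes, and in 14.8% of all windows. A match lay before the outermost start of 6 genes. Of these, 4 promoters are shown as examples, those of GCLM, ME1 and TXNRD1 with TGACNNNGC and that of OSGIN1, whose match also holds another motif. The other matches were those of NQO1 (TGAGGCTGC, 119 bases before the start) and AKR1C1 (TGAGCTGGC, 41 bases before it). Each is written 5′ to 3′ on the strand of the gene, ending at the base before the start, with the match in capitals.
GCLM: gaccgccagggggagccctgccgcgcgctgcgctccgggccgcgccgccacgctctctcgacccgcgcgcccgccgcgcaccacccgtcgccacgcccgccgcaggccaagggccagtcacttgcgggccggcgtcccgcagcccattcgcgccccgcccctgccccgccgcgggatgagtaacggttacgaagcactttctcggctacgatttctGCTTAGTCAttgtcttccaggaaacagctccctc
ME1: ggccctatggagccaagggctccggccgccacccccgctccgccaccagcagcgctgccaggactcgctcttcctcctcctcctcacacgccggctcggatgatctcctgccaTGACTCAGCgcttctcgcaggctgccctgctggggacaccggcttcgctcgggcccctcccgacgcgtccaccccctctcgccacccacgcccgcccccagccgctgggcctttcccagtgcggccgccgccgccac
TXNRD1: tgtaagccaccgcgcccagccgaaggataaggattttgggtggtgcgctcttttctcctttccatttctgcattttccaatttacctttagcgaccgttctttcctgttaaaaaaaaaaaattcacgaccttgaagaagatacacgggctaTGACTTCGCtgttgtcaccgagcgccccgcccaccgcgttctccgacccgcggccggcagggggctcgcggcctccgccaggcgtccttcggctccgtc
OSGIN1: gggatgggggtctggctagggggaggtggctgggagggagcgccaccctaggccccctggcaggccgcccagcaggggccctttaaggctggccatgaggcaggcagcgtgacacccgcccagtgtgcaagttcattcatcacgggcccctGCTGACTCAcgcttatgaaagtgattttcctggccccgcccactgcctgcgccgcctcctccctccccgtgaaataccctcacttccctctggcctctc
They lie at chr1:93909431-93909680 (GCLM, minus strand), chr6:83431052-83431301 (ME1, minus strand), chr12:104215529-104215778 (TXNRD1, plus strand) and chr16:83952990-83953239 (OSGIN1, plus strand). The GCLM match, on the opposite strand of the gene, reads TGACTAAGC in motif direction and begins 34 bases before the start. In ME1 the match TGACTCAGC begins 137 bases before the start, and in OSGIN1 the match reads TGAGTCAGC on the opposite strand, 99 bases before it. Both of these also hold the AP-1 letters TGANTCA, so the same bases match a pair of motifs. The TXNRD1 match TGACTTCGC begins 99 bases before the start. Neither set of letters was found in the window of SRXN1 or of GCLC. A match is only a run of letters, and a missing match says only that these letters are not in this window.

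On the deposited log2 scale the 3 groups mostly stood in the order shBAP1 #1, shControl, shBAP1 #2, from low to high. A probe set was called changed in a comparison when the Benjamini-Hochberg adjusted p of limma, over all 54613 probe sets, was below 0.05. Against shControl, shBAP1 #1 had 14 of the 25 probe sets called lower and 0 higher by limma (1 higher at an unadjusted p below 0.05), where 8.76% of all probe sets were called lower and 8.98% higher. With shBAP1 #2 against shControl, 15 were called higher and 0 lower (0 also unadjusted), where 12.6% of all were higher and 11.5% lower. These comparisons share the control arrays. The difference between shBAP1 #2 and shBAP1 #1 uses no control array. Its standard error and p do, since the fit takes 1 estimate of the spread from all groups. In this direct comparison 18 of the 25 were called higher and 0 lower by limma (0 also unadjusted), where 13.0% of all were higher and 12.5% lower. Since the genes were chosen with these contrasts in view, nothing is read from the distance to those percentages.

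The 18 called probe sets of the direct comparison are exactly those whose mean was not below 5.44, the middle value of the means of all fitted probe sets, and every member gene has at least 1 of them. The other 7 were dim, with values between 2.95 and 5.54 and differences between -0.12 and 0.20, and 0 of them were called in any comparison by limma (1, AKR1C1 217626_at with shBAP1 #1, had an unadjusted p below 0.05). They are 1 probe set each of NFE2L2, GCLC, TXNRD1 and ME1 and 3 of AKR1C1. Per gene, the brightest probe set by its mean over the 9 arrays is called the lead probe set here. The median log2 difference over the 10 lead probe sets was -0.44 for shBAP1 #1 and 0.43 for shBAP1 #2 against shControl, and 0.95 between the hairpins, beside 0.0065, 0.016 and 0.0054 over all probe sets.

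**Figure D1:**
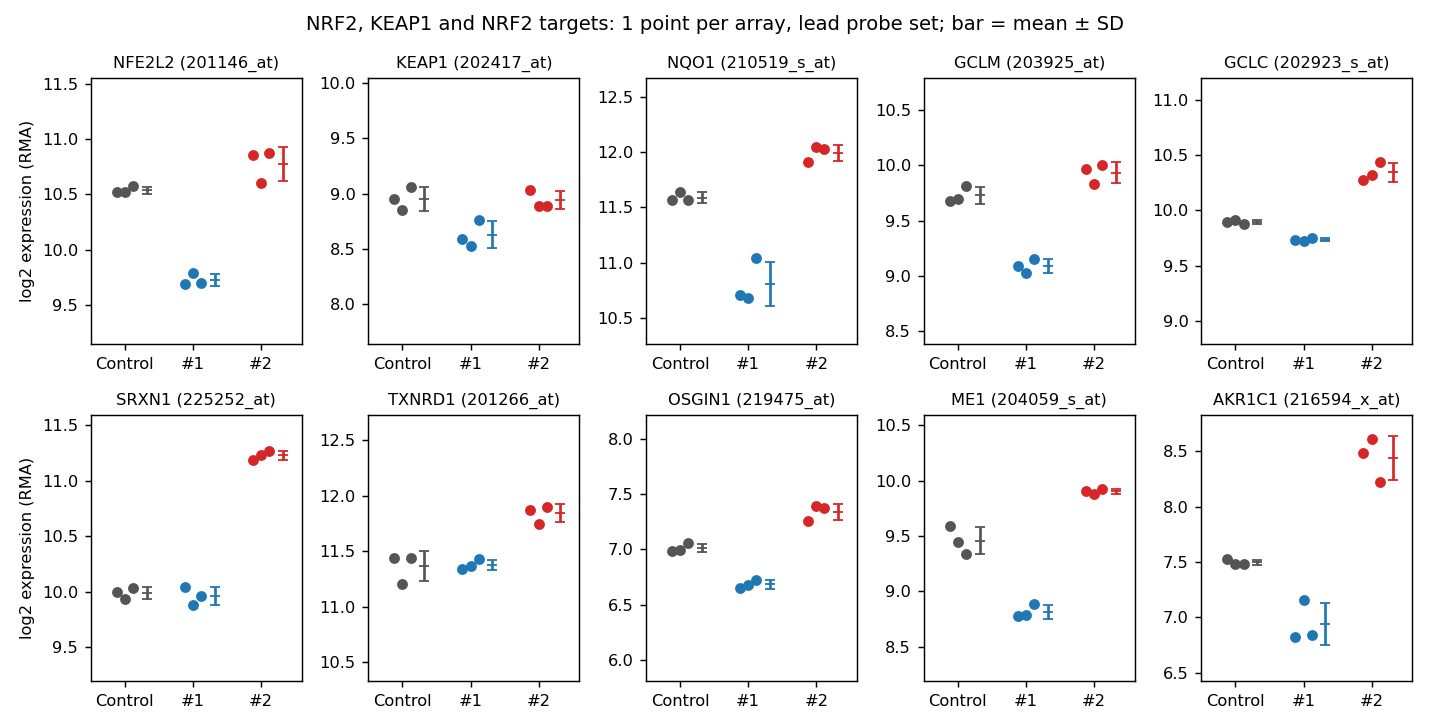
Log2 expression (RMA, vertical axis) of the lead probe set of each of the 10 genes in shControl (Control), shBAP1 #1 (#1) and shBAP1 #2 (#2), with 1 point per array and the mean ± SD (n = 3) beside the points; each panel spans the same log2 range. In every panel the 3 shBAP1 #2 points lie above the 3 shBAP1 #1 points, and the control points lie between them except in KEAP1, SRXN1 and TXNRD1, where they overlap with 1 of the hairpins.

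NFE2L2 (chromosome 2, 177230303 to 177264727, GRCh38.p14) was lowered with shBAP1 #1. Its lead probe set 201146_at read 10.52, 10.52 and 10.58 in the control arrays, 9.69, 9.79 and 9.70 with shBAP1 #1, and 10.85, 10.60 and 10.88 with shBAP1 #2. No shBAP1 #1 array came near a control, whereas the lowest shBAP1 #2 array lay just above the highest control. The difference from shControl was -0.81 ± 0.082 (SE, n = 3) with shBAP1 #1, 1.75-fold lower, and 0.24 ± 0.082 with shBAP1 #2. By limma the first was called and the second was not (adjusted p = 0.061). The second was called in 3 of 8 other settings and in 1 of the 9 fits without 1 array, without shBAP1 #2 replicate 2 (0.33, adjusted p = 0.010). The hairpins differed by 1.05 ± 0.082, 2.07-fold.

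The second NFE2L2 probe set, 1567013_at, stood in the same order. Its values were 6.64, 6.55 and 6.64 in shControl, 5.998, 6.378 and 6.255 with shBAP1 #1, and 6.89, 6.84 and 6.96 with shBAP1 #2, so that the groups did not overlap. The differences from shControl were -0.40 ± 0.094 and 0.29 ± 0.094 (SE), both called by limma. The call with shBAP1 #1 was lost without shControl replicate 1 (-0.38, adjusted p = 0.053). The call with shBAP1 #2 was lost in 5 of 7 other settings and in 7 of the 9 fits without 1 array, each shControl array, each shBAP1 #2 array and shBAP1 #1 replicate 3, at 0.26 to 0.32 and adjusted p = 0.058 to 0.14. A rise of NFE2L2 with shBAP1 #2 is thus near the threshold for both probe sets, while the difference between the hairpins was called for both in every setting run.

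KEAP1 (chromosome 19, 10486125 to 10503356), the inhibitor, has 1 probe set, 202417_at. It read 8.95, 8.85 and 9.06 in shControl, 8.59, 8.53 and 8.76 with shBAP1 #1, and 9.03, 8.89 and 8.89 with shBAP1 #2. The shBAP1 #1 arrays lay below all others, and the shBAP1 #2 arrays overlapped with the controls. Differences from shControl were -0.32 ± 0.086 (SE, n = 3), which limma called, and -0.013 ± 0.086, which it did not, with the direction of the latter turned in 3 of the 9 fits without 1 array. The call with shBAP1 #1 was lost in 4 of the 9: without shControl replicate 1 (-0.32, adjusted p = 0.071) or 3 (-0.27, adjusted p = 0.089) and without shBAP1 #1 replicate 1 (-0.31, adjusted p = 0.082) or 2 (-0.27, adjusted p = 0.095). The difference between the hairpins, 0.31 ± 0.086, was likewise lost without shBAP1 #1 replicate 1 (0.29, adjusted p = 0.071) or 2 (0.26, adjusted p = 0.083) and without shBAP1 #2 replicate 1 (0.26, adjusted p = 0.066). KEAP1 in shControl and with shBAP1 #2 thus did not differ beyond the spread between arrays. The difference with shBAP1 #1 stayed between -0.39 and -0.27 in the fits without 1 array, where its call was near the threshold.

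NQO1 (chromosome 16, 69709401 to 69726560) encodes a quinone reductase and is among the most used readouts of NRF2 activity. The lead probe set 210519_s_at read 11.56, 11.64 and 11.56 in shControl, 10.71, 10.68 and 11.04 with shBAP1 #1, and 11.91, 12.05 and 12.02 with shBAP1 #2. The groups did not overlap, and shBAP1 #1 replicate 3 was the nearest of its group to the controls. NQO1 fell by 0.78 ± 0.096 (SE, n = 3) with shBAP1 #1 and rose by 0.40 ± 0.096 with shBAP1 #2, both called by limma, and the hairpins differed 2.27-fold. The 2 other probe sets gave -0.79 and -0.78 with shBAP1 #1 and 0.52 and 0.42 with shBAP1 #2, all called. Of these, the call of 201468_s_at with shBAP1 #2 was lost without shBAP1 #2 replicate 3 (0.45, adjusted p = 0.057). All 3 NQO1 probe sets carry a suffix for probes that can match more than 1 transcript. NQO1 therefore had no probe set in the setting that leaves such suffixes out.

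GCLM and GCLC encode the modifier and the catalytic subunit of glutamate-cysteine ligase, the rate-limiting enzyme of glutathione synthesis. For GCLM (chromosome 1, 93885199 to 93909430) the 3 probe sets went the same way by unequal amounts. The lead, 203925_at, read 9.67, 9.69 and 9.82 in shControl, 9.09, 9.02 and 9.15 with shBAP1 #1, and 9.97, 9.83 and 10.00 with shBAP1 #2. Probe set 234986_at read 6.01, 6.04 and 6.22 in shControl, 4.90, 4.88 and 4.81 with shBAP1 #1, and 7.002, 7.172 and 7.342 with shBAP1 #2. All 3 groups were apart in both, though for the lead the highest control and the lowest shBAP1 #2 array nearly touched. The differences were -0.64 ± 0.075 and 0.21 ± 0.075 (SE) for the lead, -1.22 ± 0.095 and 1.08 ± 0.095 for 234986_at, and -1.15 ± 0.13 and 0.90 ± 0.13 for 236140_at.

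All of these GCLM differences were called by limma except that of the lead with shBAP1 #2 (adjusted p = 0.075), which was called with dim probe sets left out (adjusted p = 0.049) and without shBAP1 #2 replicate 2 (0.26, adjusted p = 0.049). Between the hairpins GCLM differed 4.95-fold by 234986_at, 4.12-fold by 236140_at and 1.795-fold by the lead. The size of the GCLM change thus depends on the probe set, and the direction does not.

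The catalytic subunit gene GCLC (chromosome 6, 53497341 to 53545101) was higher with shBAP1 #2. Its lead 202923_s_at read 9.90, 9.91 and 9.87 in shControl, 9.73, 9.72 and 9.75 with shBAP1 #1, and 10.27, 10.32 and 10.44 with shBAP1 #2, with no overlap between groups. The change of -0.16 ± 0.065 (SE) with shBAP1 #1 was not called (adjusted p = 0.13 by limma), and that of 0.45 ± 0.065 with shBAP1 #2 was. The probe set 202922_at gave larger differences, -0.44 ± 0.078 and 0.77 ± 0.078, both called. Between the hairpins GCLC differed 1.53-fold by the lead and 2.30-fold by 202922_at.

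SRXN1 and TXNRD1 serve the thioredoxin branch of thiol defence: sulfiredoxin repairs overoxidised peroxiredoxins, and thioredoxin reductase keeps thioredoxin reduced with NADPH. SRXN1 (chromosome 20, 646615 to 653200; probe set 225252_at) read 10.00, 9.93 and 10.03 in shControl, 10.04, 9.88 and 9.96 with shBAP1 #1, and 11.19, 11.23 and 11.27 with shBAP1 #2. The controls and shBAP1 #1 overlapped, and all 3 shBAP1 #2 arrays stood well above both. It rose by 1.24 ± 0.068 (SE) with shBAP1 #2, 2.37-fold, and differed by -0.028 ± 0.068 with shBAP1 #1, where the sign turned without shBAP1 #1 replicate 2 (0.013).

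TXNRD1 (chromosome 12, 104215779 to 104350307; lead 201266_at) had the same shape at a smaller size. Its values were 11.44, 11.21 and 11.44 in shControl, 11.34, 11.37 and 11.43 with shBAP1 #1, and 11.88, 11.75 and 11.90 with shBAP1 #2. Here too shControl and shBAP1 #1 overlapped, and shBAP1 #2 was above both. The rise with shBAP1 #2 was 0.48 ± 0.082 (SE), and the difference with shBAP1 #1 was 0.015 ± 0.082, with a sign that turned without shControl replicate 2 (-0.063) or shBAP1 #1 replicate 3 (-0.0099). For SRXN1 and TXNRD1 the neighbours shControl and shBAP1 #1 hence did not differ beyond their spread.

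ME1 (chromosome 6, 83210402 to 83431051), the cytosolic malic enzyme that yields NADPH, stood apart in all 3 groups. The lead 204059_s_at read 9.59, 9.44 and 9.34 in shControl, 8.77, 8.78 and 8.88 with shBAP1 #1, and 9.91, 9.88 and 9.93 with shBAP1 #2. It fell by 0.64 ± 0.076 (SE) and rose by 0.45 ± 0.076, and the dimmer 204058_at gave -0.95 ± 0.095 and 0.67 ± 0.095. All 4 differences were called by limma in every setting in which the probe set was fitted.

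OSGIN1 (chromosome 16, 83953240 to 83966332; probe set 219475_at), an oxidative stress response gene linked to growth inhibition, moved by equal amounts in both directions. It read 6.99, 6.99 and 7.05 in shControl, 6.65, 6.68 and 6.72 with shBAP1 #1, and 7.25, 7.39 and 7.37 with shBAP1 #2, with no overlap. The differences were -0.33 ± 0.066 and 0.33 ± 0.066 (SE), both called. These are small steps, 1.25-fold each, on a probe set with little spread between replicates.

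AKR1C1 (chromosome 10, 4963415 to 4983283) encodes an aldo-keto reductase that reduces carbonyls and steroids. Its lead 216594_x_at read 7.53, 7.48 and 7.48 in shControl, 6.82, 7.16 and 6.84 with shBAP1 #1, and 8.49, 8.61 and 8.22 with shBAP1 #2. The groups were apart, with shBAP1 #1 replicate 2 nearest to the controls. The differences were -0.56 ± 0.11 and 0.94 ± 0.11 (SE), both called, and the hairpins differed 2.83-fold. With 204151_x_at they were -0.27 ± 0.085, not called (adjusted p = 0.056 by limma), and 1.32 ± 0.085, called. The former was called in 2 of 6 other settings and in 2 of 9 fits without 1 array, without shBAP1 #1 replicate 2 (-0.35, adjusted p = 0.020) or shBAP1 #2 replicate 1 (-0.27, adjusted p = 0.048).

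Both bright AKR1C1 probe sets carry the suffix for probes that also match other transcripts, and AKR1C1 has close relatives beside it in the genome, so the signal may be shared with them. AKR1C2, read by 209699_x_at, differed by -0.30 and 1.11 from shControl with shBAP1 #1 and #2. AKR1C3 was read by 209160_at, whose suffix marks no shared probes. It went from 8.92, 8.75 and 8.80 in shControl to 7.92, 7.83 and 7.91 with shBAP1 #1 and 9.66, 10.07 and 10.03 with shBAP1 #2. AKR1C3 is a separate gene, so its values do not show what AKR1C1 did. The AKR1C1 probe sets without a shared-probe suffix, 217626_at and 1555855_at, were dim and did not show the pattern. They differed from shControl by 0.20 and 0.11 with shBAP1 #1 and by 0.077 and 0.089 with shBAP1 #2, none called by limma.

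**Figure D2:**
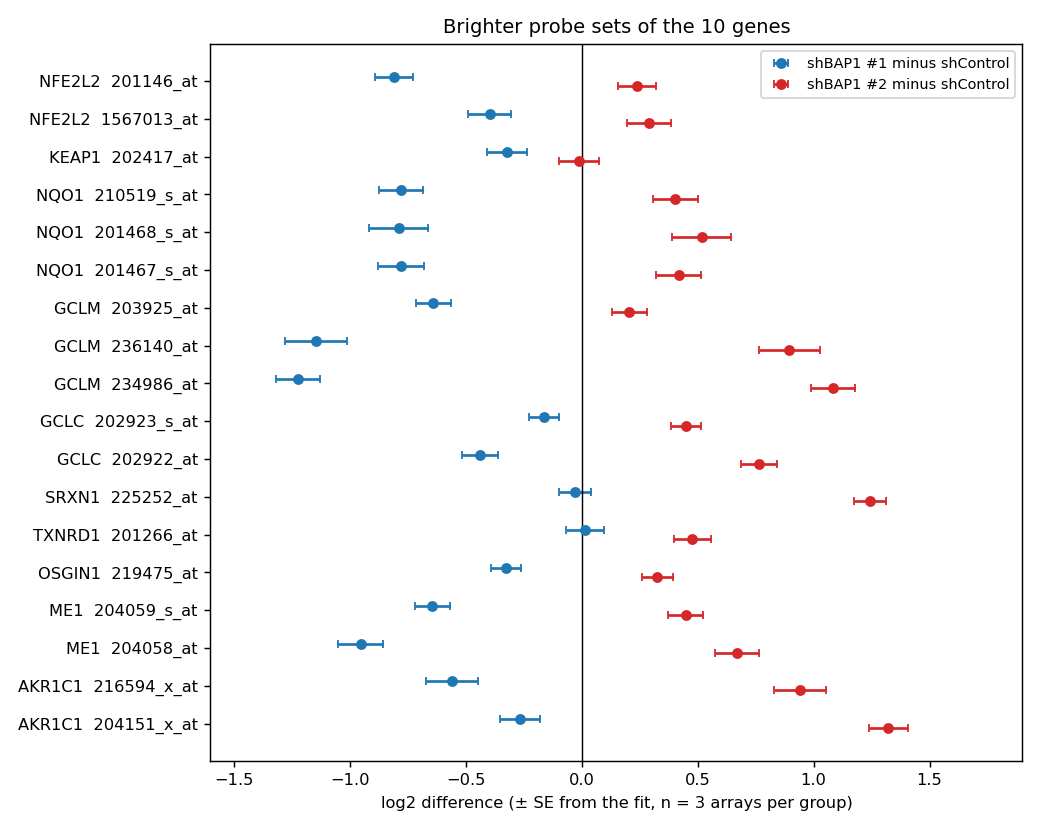
Log2 difference from shControl (horizontal axis, ± SE from the fit, n = 3 arrays per group) of the 18 brighter probe sets of the 10 genes, in blue for shBAP1 #1 and in red for shBAP1 #2. The red points run from -0.013 (KEAP1) to 1.32 (AKR1C1) and the blue points from -1.22 (GCLM) to 0.015 (TXNRD1), and in each row the red point lies to the right.

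Profiles most like those of NFE2L2 and SRXN1 were looked for among 12747 other genes whose lead probe set was not dim, by the root mean square difference of the values over the 9 arrays after centring each gene on its mean. Nearest to NFE2L2 were NOC3L (0.073 log2 units), KLHL5 (0.087), TMX1 (0.099), PDSS2 (0.10) and POLR3E (0.10). NOC3L, for example, differed by -0.84 and 0.18 from shControl. Among the members, GCLM ranked 15 (0.11), ME1 57 (0.14) and NQO1 121 (0.16), while SRXN1 ranked 4366 (0.44). The profiles nearest to NFE2L2 were thus of genes outside the member list.

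Nearest to SRXN1 were RAB31 (0.11), HS1BP3 (0.11), FGFR1 (0.12), DOCK9 (0.12) and PALS1 (0.12), and the closest member was AKR1C1 at rank 242 (0.27). RAB31 differed by 0.048 and 1.21 from shControl, beside -0.028 and 1.24 for SRXN1. The distance is a description over 9 arrays in 3 groups, and since each gene was centred, a small value says only that the differences between arrays were similar, not the levels.

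**Figure D3:**
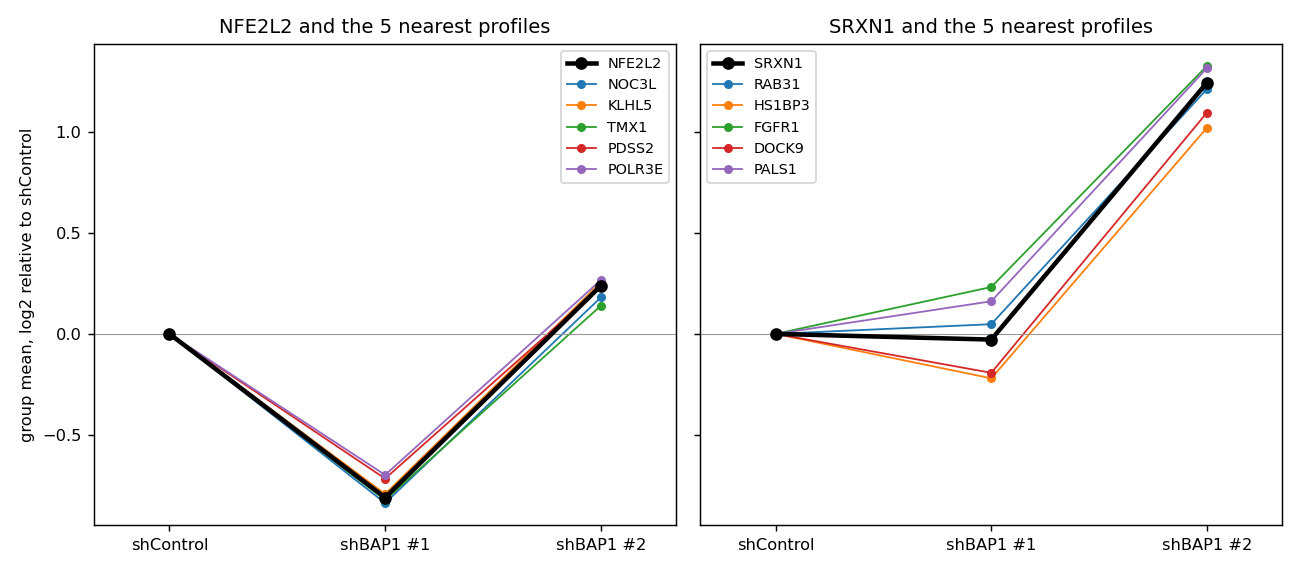
Group means of NFE2L2 (left) and SRXN1 (right), in black, and of the 5 genes nearest to each, in colour, in log2 units relative to shControl (vertical axis) for shControl, shBAP1 #1 and shBAP1 #2. The NFE2L2 group dips with shBAP1 #1 (NFE2L2 at -0.81), and the SRXN1 group climbs with shBAP1 #2 (SRXN1 at 1.24).

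Other targets of NRF2 were taken from a textbook list of 34, of which 31 had a lead probe set here, 28 of them at or above the median. With shBAP1 #1, 11 of the 31 were called lower and 3 higher by limma, with shBAP1 #2 15 were higher and 4 lower, and between the hairpins 19 were higher with shBAP1 #2 and 5 lower. Over all probe sets 8.76% were lower and 8.98% higher with shBAP1 #1, and 12.6% higher and 11.5% lower with shBAP1 #2. Between the hairpins 13.0% were higher and 12.5% lower with shBAP1 #2. The 3 targets higher with shBAP1 #1 and the 4 lower with shBAP1 #2 are near those shares. The shares count dim probe sets too, and none was computed for lead probe sets alone. The median differences of the targets were -0.10, 0.24 and 0.35. The largest differences between the hairpins at or above the median were those of AKR1C3 (2.03 ± 0.11, SE), of TRIM16, a ubiquitin ligase (1.57 ± 0.089), of AKR1C2 (1.42 ± 0.073) and of SLC7A11, the cystine importer (1.30 ± 0.18). TRIM16 went from 9.70, 9.47 and 9.61 in shControl to 8.26, 8.49 and 8.57 with shBAP1 #1 and to 10.00, 10.02 and 10.01 with shBAP1 #2.

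SLC7A11 changed by -0.76 ± 0.18 (SE), called, and by 0.54 ± 0.18, not called (adjusted p = 0.060 by limma). The former call was lost without shControl replicate 1 (-0.75) or 3 (-0.61) or shBAP1 #1 replicate 1 (-0.68) or 2 (-0.69), at adjusted p = 0.055 to 0.063. The latter was gained with the replicate block (0.54, adjusted p = 0.023), in 2 other settings, and without shControl replicate 3 (0.69, adjusted p = 0.028) or shBAP1 #1 replicate 3 (0.54, adjusted p = 0.040). For AKR1C2 the call with shBAP1 #1 was lost without shControl replicate 3 (-0.28) or shBAP1 #1 replicate 1 (-0.28) or 2 (-0.27), at adjusted p = 0.050 to 0.059.

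Not all of the listed targets followed the members, and those named in this paragraph were chosen after their values were seen. HMOX1, the haem oxygenase gene, was higher with both hairpins: 7.74, 7.98 and 7.95 in shControl, 8.17, 8.62 and 8.34 with shBAP1 #1, and 8.478, 8.867 and 8.500 with shBAP1 #2. The other 2 targets called higher with shBAP1 #1 were IDH1 (0.65) and ABCC1 (0.34). The 4 called lower with shBAP1 #2 were PRDX1, a peroxiredoxin (-1.13), PGD (-0.42) and TKT (-0.24) of the pentose phosphate pathway, and PIR (-0.46). PIR was called lower with shBAP1 #1 too, by more (-0.78). Between the hairpins it was thus higher with shBAP1 #2, as the members were (0.32, adjusted p = 0.049 by limma). For PRDX1, shBAP1 #2 replicate 1 (12.91) lay nearer to the controls (13.52 to 13.60) than replicates 2 and 3 (12.19 and 12.17).

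Among 18 listed regulators and partners of NRF2, 16 were measured. With shBAP1 #1, 3 were called lower and 2 higher by limma, with shBAP1 #2 7 were higher and 4 lower, and between the hairpins 4 were higher and 4 lower with shBAP1 #2. The shares over all probe sets were the same as above (8.76% and 8.98%, 12.6% and 11.5%, 13.0% and 12.5%). Beside them, the 2 higher with shBAP1 #1 are near the background, though the shares count dim probe sets too. The medians of the regulators were -0.042, 0.023 and 0.099. SQSTM1, which encodes p62 and is itself an NRF2 target, differed most, by 2.61 ± 0.11 (SE) between the hairpins. It read 10.51, 10.80 and 10.39 in shControl, 9.47, 9.49 and 9.46 with shBAP1 #1, and 11.89, 12.18 and 12.19 with shBAP1 #2, a larger difference than that of any member probe set.

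MAFG, a small MAF partner that also is an NRF2 target, read 8.32, 8.34 and 8.31 in shControl, 8.19, 8.20 and 8.13 with shBAP1 #1, and 9.07, 9.42 and 9.58 with shBAP1 #2. Its rise of 1.03 ± 0.11 (SE) with shBAP1 #2 was called, and its difference of -0.15 ± 0.11 with shBAP1 #1 was not. GSK3B, a kinase that marks NRF2 for degradation, was lower with shBAP1 #1 (-0.57 ± 0.058) and differed by 0.025 ± 0.058 with shBAP1 #2. CUL3, the ligase scaffold, was lower with both (-0.47 and -0.35) and was singled out after its values were seen. The 4 regulators called lower with shBAP1 #2 than with shBAP1 #1 were CREBBP (-0.58), EP300 (-0.55), BACH2 (-0.46) and DPP3 (-0.28).

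**Figure D4:**
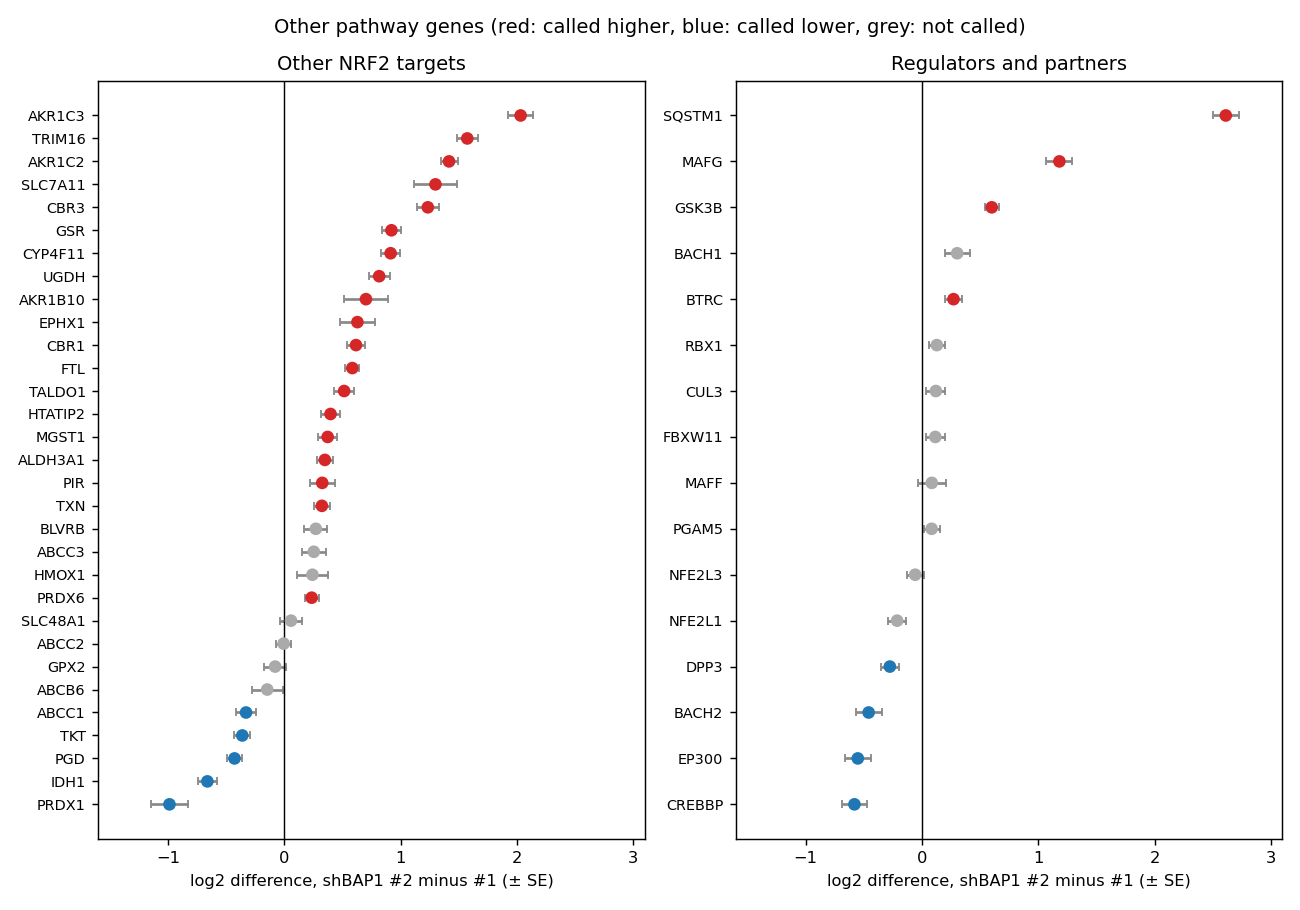
Log2 difference between shBAP1 #2 and shBAP1 #1 (horizontal axis, ± SE from the fit, n = 3 arrays per group) of the lead probe sets of 31 other NRF2 targets (left) and 16 regulators and partners (right), red where called higher with shBAP1 #2, blue where called lower and grey where not called. Targets run from PRDX1 (-0.99) to AKR1C3 (2.03), and among the regulators SQSTM1 (2.61) lies farthest to the right.

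Arrays of the same group correlated at r = 0.995 to 0.997 over probe sets and arrays of different groups at 0.976 to 0.990. For actin, the 3' minus the 5' control probe set, which reflects how intact the RNA was, came to 0.47 to 0.51 log2 units in shControl, 0.39 to 0.41 with shBAP1 #1 and 0.39 to 0.46 with shBAP1 #2. It thus separated the controls from both hairpins and overlapped between the hairpins. The same difference for GAPDH overlapped in all groups, at -0.061 to -0.018 in shControl, -0.052 to -0.034 with shBAP1 #1 and -0.045 to -0.031 with shBAP1 #2. The part of actin's shift in the differences from shControl was not tested. The mesenchymal markers VIM (mean 14.1), SPARC (12.7) and COL1A1 (11.5) and the osteoblast factor RUNX2 (7.20) were above the median of all probe sets. COL1A2 (4.53), SP7 (4.77) and ALPL (4.86) were below it, as were the blood cell markers PTPRC (3.95) and CD3E (4.73). Of the epithelial markers, CDH1 (5.002) and KRT19 (4.04) were below it and EPCAM (6.17) was above it, as was the globin gene HBB (5.86). These are means over all arrays, and some markers moved with the groups. With shBAP1 #1, RUNX2 (1.201), COL1A1 (0.99) and SPARC (0.35) were called higher than in shControl by limma. With shBAP1 #2, ALPL was called higher (1.18), reaching a mean of 5.57, above the median. EPCAM was called lower with both hairpins (-0.54 and -0.64). Between the hairpins PTPRC, which was below the median in every group, was called lower with shBAP1 #2 (-0.23). The part of these changes in the results for the NRF2 genes was not tested.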

How the data were processed

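The deposited table holds log2 expression values per probe set for 9 arrays, made by the authors with RMA per the submitters' processing notes; its version and the annotation used are not given in the sources used here. RMA gives all arrays the same distribution, which hides a shift of all transcripts at once, and it shrinks differences between dim values. Array medians lay between 5.40 and 5.45, and the number of arrays limits the precision.

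Groups and replicate numbers came from the sample titles. Gene symbols came from the array platform's annotation, and 41043 of 41097 with 1 symbol matched RefSeq GRCh38.p14 by gene identifier. After 62 control probe sets were left out, limma 3.58.1 in R 4.3.3 (lmFit, eBayes, two-sided, no covariates) was fitted to all 54613 probe sets in 3 groups, with 6 residual degrees of freedom and Benjamini-Hochberg adjustment over all of them. Standard errors come from this fit. No probe sets were filtered out. The fit was tested on simulated data.

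The members and gene lists were chosen with earlier results of these data known. Named by rule were the 4 targets and 3 regulators with the largest difference between the hairpins at or above the median. The 5 genes nearest to NFE2L2 and SRXN1 were also named by rule. Other targets and regulators were named after their values were seen. Alternatives were 1 lead probe set per gene, dim or shared-probe sets left out, cyclic loess, median centring, an intensity trend, only the 2 groups compared, a replicate block, and each array left out in turn. Figures were drawn with matplotlib 3.10.9.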

Additional observations from a re-analysis of the deposited data

Results flagged for a closer look

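For the lead probe set of each of the 10 genes, the response to shBAP1 #2 differed from that to shBAP1 #1 by limma's test of the difference itself. The log2 differences, shBAP1 #2 minus shBAP1 #1, were largest for AKR1C1 (1.50), SRXN1 (1.27), NQO1 (1.18), ME1 (1.09) and NFE2L2 (1.05). They were smaller for GCLM (0.84), OSGIN1 (0.65), GCLC (0.61), TXNRD1 (0.46) and KEAP1 (0.31). The genes were chosen with this pattern known, and its cause was not tested.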

How the results depend on the processing

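Some counts of called member probe sets moved by over 1.5 times under 2 settings that leave members out. With 1 lead probe set per gene, 7 of 10 were called for shBAP1 #1 against shControl, 8 for shBAP1 #2 against shControl and 10 between the hairpins. With shared-probe suffixes left out, 9, 7 and 11 of 17 were called. With dim probe sets left out, which fits 18 members, 15, 17 and 18 were called. Under that and the other settings the counts stayed within 1.5 times. Leaving out 1 array gave 12 to 15 for shBAP1 #1, 13 to 16 for shBAP1 #2 and 17 to 18 between the hairpins. Some differences that were not called changed sign in such fits: SRXN1 with shBAP1 #1 ran from -0.070 to 0.013, TXNRD1 with shBAP1 #1 from -0.063 to 0.054, and KEAP1 with shBAP1 #2 from -0.065 to 0.040. With the replicate block 14, 14 and 18 probe sets were called. Same-numbered arrays of different groups deviated from their group means with correlations from -0.17 to 0.30, beside -0.28 to 0.19 for differently numbered arrays. Of the 9 arrays, 5 correlated best with their own number. These overlapping ranges do not settle whether the numbers mark pairs. The main fit did not pair the arrays. Dim probe sets, 7 of 25 here, limit what can be said of those transcripts.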
